A study of Mus musculus with 20 samples.

Results

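The libraries described here show which RNAs differed in spleens full of T-cell acute lymphoblastic leukemia (T-ALL, a cancer of immature T cells) 72 h after the gene Acly was deleted in an established leukemia. They are the 10 libraries of the acute table, chosen by that table and its labels alone, of 20 libraries in the series. All recipients were irradiated below the lethal dose and received, by vein, a mouse T-ALL that carries a conditional knockout allele of Acly. Once leukemia was overt, 6 mice were given corn oil by intraperitoneal injection (genotype label Control, titles ACLY_WT) and 4 were given tamoxifen in corn oil, 3 mg per mouse, by the same route (genotype label Acly deleted, titles ACLY_KO). The controls thus carried the same conditional leukemia without tamoxifen, so an action of tamoxifen and the deletion of Acly cannot be told apart. The labels name neither the recombinase nor its promoter, and do not give the number of independent leukemias or say that each library is a separate mouse. P-values therefore measure the spread between these libraries, which may be technical. Strand-specific libraries of polyadenylated RNA were made from whole splenic suspensions after filtering and red cell lysis, with no sort named. In such bulk RNA, fewer cells of a type and less RNA per cell cannot be told apart. The deposited values are normalized counts, that is, estimated reads per gene divided by a factor for each library, with no correction for gene length, so levels are compared between libraries and not between genes.

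Acly encodes ATP-citrate lyase, which splits citrate in the cytosol into oxaloacetate and acetyl-CoA, the building block of fatty acids and sterols and the donor for protein acetylation. Tamoxifen is commonly used to switch on a recombinase fused to an estrogen receptor domain. A leukemic spleen is a mixed tissue: beside the blasts it holds granulocytes, macrophages, B cells, plasma cells, red cell precursors and stroma, each with its own abundant transcripts.

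Acly itself, the targeted gene, was examined first. The 6 controls had 7406, 7633 and 8279.6 normalized counts at their lowest, median and highest, and deleted libraries 1 to 4 had 5226, 6228, 6402 and 4823. Every deleted library lay below every control, and the deleted mean was 73.3% of the control mean (log2 fold change -0.46, SE 0.075, adjusted p = 0.000866 by limma over all genes). A permutation test of Acly alone, exact and two-sided, gave p = 0.00476, the lowest value possible with 210 arrangements. Deleted libraries 2 and 3 kept more Acly RNA than 1 and 4, and without them the log2 fold change was -0.62 (adjusted p = 0.000141). The fall did not stand against every scale: relative to Trbc1 and Trbc2, the constant segments of the T-cell receptor beta chain, Acly differed by -0.081 (adjusted p = 0.653).

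Totals of normalized counts ran from 19432235 to 20731983 per library, and the reads behind them could not be recovered, so the depth is unknown. Of 26099 genes in the table, 16363 reached a normalized count of 10 in at least 4 libraries and were tested, and 9736 were not. Nearest that limit, in their library of rank 4, were Nrg1 and Gm8663 just below it (9.995 and 9.997) and Gm18649 and Tmem266 just above it (10.001 and 10.010). T-cell and thymocyte markers were abundant in all libraries, with a summed level of 341432 to 350344 in the controls and 232826 to 304811 in the deleted libraries, where 23 of 29 fell and 1 rose. The deleted libraries differed from the controls in markers of other cells as well. All 34 tested neutrophil markers rose, their sum being 15227 to 61375 in the controls and 218971 to 738904 in the deleted libraries. So did 31 of 35 markers of monocytes and macrophages, 22 of 24 of B cells, and 11 of 13 of plasma cells. Among NK and cytotoxic markers 10 of 11 tested rose and 1 fell. The sum over all 17 of them was 6685 to 8690 in the controls and 6816 to 7426 in the deleted libraries. Among dendritic cell markers 7 of 13 rose and 1 fell. Rises were also found for 9 of 10 markers of basophils, mast cells and eosinophils, 3 of 8 of megakaryocytes, 1 of 10 of stroma and 0 of 21 of erythroid cells. Of all tested genes, 16.7% were called higher and 14.7% lower. No listed marker was at 0 in all libraries of a group. A score over the markers of all these cells except T cells (mean of centred log2 values) ran from -1.04 to -0.24 in the controls and was 0.45, 1.65, 1.38 and 0.82 in deleted libraries 1 to 4. Libraries 2 and 3 thus stood apart, and results are given with and without them. Without them all 34 neutrophil markers still rose. Rises were then 19 of 35 for monocytes and macrophages, 10 of 24 for B cells and 3 of 13 for plasma cells. For NK and cytotoxic, dendritic cell, and basophil, mast cell and eosinophil markers they were 4 of 11, 4 of 13 and 7 of 10. For megakaryocytes, stroma and erythroid cells they were 1 of 8, 1 of 10 and 0 of 21. T-cell and thymocyte markers then had 13 falls and 1 rise of 29. Of all genes 13.1% were then called. The score did not overlap between the groups, and with it as a covariate limma called 0 genes (1180 at an unadjusted p under 0.05). Changes inside the leukemic cells and changes in the mix of cells therefore cannot be told apart for any gene named here. Their part in each result was not tested.

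Across all genes, 5140 of 16363 (31.4%) were called at a Benjamini-Hochberg adjusted p under 0.05, 2731 higher (16.7%) and 2409 lower (14.7%) in the deleted libraries. The rises were the larger: 1356 called genes rose at least 2-fold and 70 fell at least 2-fold. In 3708 genes (22.7%) the groups did not overlap, 2081 with every deleted library higher and 1627 with every deleted library lower. The median log2 fold change of all genes was -0.023. It was -0.14 after quantile normalization, with 2318 genes called higher and 4145 lower (35.9% of calls higher, against 53.1%). It was 0.35 when each library was scaled to Trbc1 and Trbc2, with 7414 higher and 90 lower (98.8% higher). A fall is therefore a fall relative to the average transcript of the spleen. Of 68 falls named in the text other than Acly, 22 were still called lower relative to Trbc1 and Trbc2, and 46 were not. Without deleted libraries 2 and 3, 2137 genes were called (13.1%), 1414 higher and 723 lower, and 2095 of these were called in the same direction with all libraries. Outside the usual lists of lipid, MYC, NOTCH, interferon-induced and cell marker genes, and without receptor and antibody segments, Gm and Rik models and pseudogenes, 12625 genes were tested and 4415 called, 2323 higher and 2092 lower.

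**Figure D1:**
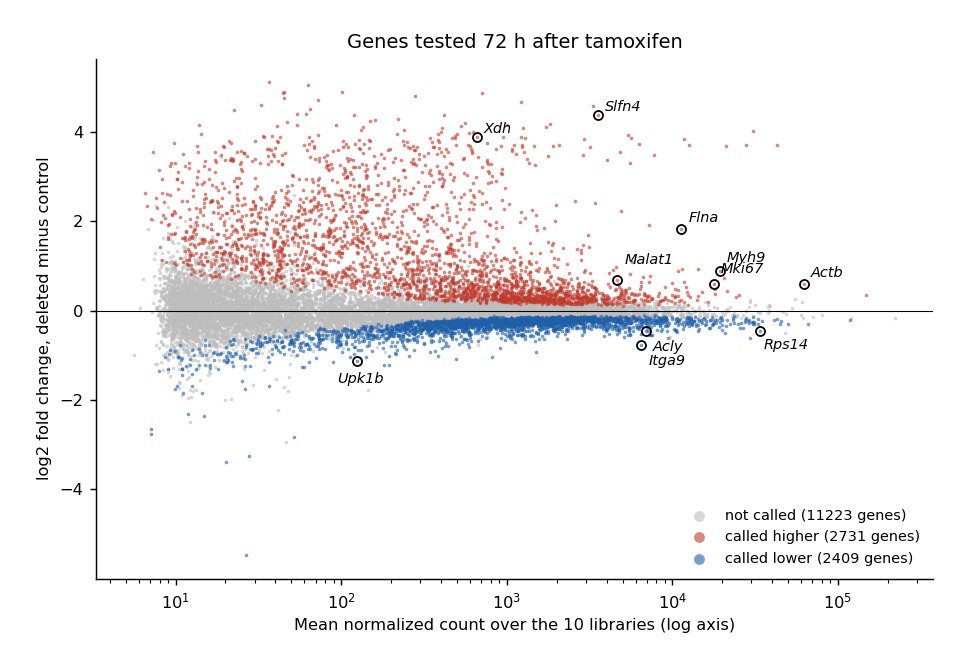
Each point is 1 of the 16363 tested genes: mean normalized count over the 10 libraries (horizontal, log axis) against log2 fold change, deleted minus control (vertical), coloured by the limma call, with 11 named genes circled. Called rises (2731) reach log2 fold changes above 4, whereas the called falls (2409) form a narrow band mostly above -1.

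Among called genes with a mean of at least 100, no overlap and a place on no usual list, the RNAs that fell furthest came from genes with unrelated roles. Upk1b, a tetraspanin-like protein best known from the bladder lining, had 133, 169 and 179 normalized counts in the controls (lowest, median, highest) and 82.9, 60.7, 62.0 and 88.3 in deleted libraries 1 to 4. It was lower in each deleted library than in any control, and libraries 2 and 3 were the lowest. Its level changed by a log2 fold change of -1.12 (SE 0.15) with adjusted p = 0.000291. The change was -0.88 without libraries 2 and 3 (adjusted p = 0.00475) and -0.74 relative to Trbc1 and Trbc2 (adjusted p = 0.0023).

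Several of the falling genes act in signaling at the cell surface or just beneath it. Cd200, a membrane glycoprotein that restrains myeloid cells through its receptor, was at 144, 168 and 227 in controls and 105, 55.8, 78.0 and 113 in the deleted libraries (log2 fold change -1.04, SE 0.20, adjusted p = 0.00213). Gpr83, a receptor coupled to G proteins, went from 234, 254 and 305 to 188, 86.6, 115 and 166 (log2 fold change -0.96, SE 0.19, adjusted p = 0.00262). Pik3r3, a regulatory subunit of phosphoinositide 3-kinase, went from 399.7, 451 and 620.4 to 287, 209, 204 and 250.0 (log2 fold change -1.01, SE 0.14, adjusted p = 0.000257). The groups did not overlap for any of these genes, and deleted libraries 2 and 3 held the lowest values. Without them the log2 fold changes of Cd200, Gpr83 and Pik3r3 were -0.68, -0.55 and -0.82 (adjusted p = 0.0227, 0.0136 and 0.00565). Relative to Trbc1 and Trbc2 all 3 were still called lower (-0.66, -0.58 and -0.63).

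Upb1, which carries out the last step of pyrimidine breakdown, showed the tightest groups among these falls, with controls at 433, 452 and 503 and deleted libraries at 281, 225, 223 and 244 (log2 fold change -0.91, SE 0.083, adjusted p = 3.84e-05). Its fall kept most of its size without libraries 2 and 3 (-0.80, adjusted p = 0.000315) and relative to Trbc1 and Trbc2 (-0.53, adjusted p = 0.00123). Necab1, a calcium-binding protein described mainly in neurons, had 1532, 1760.1 and 2166 in the controls against 1136, 750.0, 779 and 1243 (log2 fold change -0.93, SE 0.15, adjusted p = 0.000669). Stra8, the factor that retinoic acid induces at the entry of germ cells into meiosis, had 277, 315 and 363 against 208, 99.8, 142 and 204 (log2 fold change -1.01, SE 0.18, adjusted p = 0.00161). All deleted libraries were below all controls for each, and libraries 2 and 3 were again lowest for Necab1 and Stra8. Myzap, a junction protein of heart muscle, changed by -0.93 (SE 0.15) with adjusted p = 0.000802. Igfbpl1, an insulin-like growth factor binding protein-like gene, and Ankrd37, an ankyrin repeat gene induced in hypoxia, changed by -1.05 (SE 0.26) and -0.98 (SE 0.24) with adjusted p = 0.0105 and 0.00968. Without libraries 2 and 3 neither was called (-0.43 and -0.74, adjusted p = 0.087 and 0.131), while Necab1, Stra8 and Myzap were (-0.62, -0.61 and -0.64). Relative to Trbc1 and Trbc2, 49 of the non-overlapping falls outside the usual lists remained called lower, the 11 plotted falls among them. Such falls numbered 1256 at a mean of at least 100 alone, so most lost their call on that scale.

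The largest rises outside the usual lists were in genes known mostly from granulocytes and macrophages. Slfn4, a Schlafen gene of the interferon response in myeloid cells, had 254, 321 and 421 normalized counts in the controls and 2664, 16168, 10052 and 4521 in deleted libraries 1 to 4 (log2 fold change 4.37, SE 0.39, adjusted p = 3.84e-05). Alox5, the 5-lipoxygenase that starts leukotriene synthesis, had 42.8, 68.2 and 188 against 706, 2353, 1572 and 799.8 (log2 fold change 3.97, SE 0.41, adjusted p = 4.91e-05). Il1r2, the decoy receptor for interleukin-1, had 9.91, 14.7 and 33.9 against 151, 577, 436 and 336 (log2 fold change 4.26, SE 0.41, adjusted p = 3.84e-05). For all of these the groups were far apart, library 2 was highest, then library 3, and library 1 was the lowest of the deleted libraries. That order is also the order of the marker score. Fpr2 and Ccr1, receptors for formyl peptides and chemokines, rose by 4.00 (SE 0.38) and 4.04 (SE 0.35) (adjusted p = 3.84e-05 and 3.84e-05). The leukocyte protease Mmp25, the neutrophil adaptor Pram1 and the carcinoembryonic antigen relative Ceacam10 rose by 4.19 (SE 0.39), 4.12 (SE 0.64) and 4.37 (SE 0.41) (adjusted p = 3.84e-05, 0.000632 and 3.84e-05). AA467197, Ugt1a7c (a glucuronosyltransferase) and Ifnlr1 (a subunit of the interferon lambda receptor) rose by 4.23, 4.09 and 4.04 with adjusted p = 3.84e-05 for each. Mapk13, the p38 delta kinase, was near the detection limit in the controls (0 to 58.6) and at 116 to 427 in the deleted libraries (log2 fold change 4.89, SE 1.08, adjusted p = 0.00527). It was the only one of the 12 largest rises not called without libraries 2 and 3 (4.33, adjusted p = 0.0732).

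**Figure D2:**
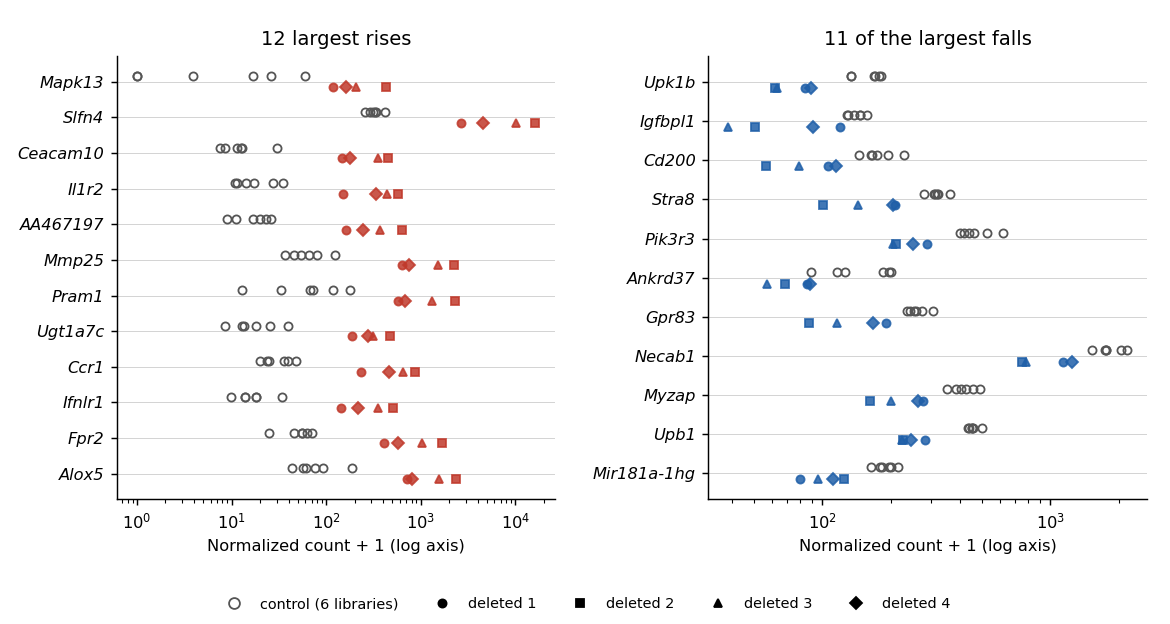
Normalized count + 1 (log axis) in every library for the 12 largest rises (left) and 11 of the largest falls (right) among called genes with a mean of at least 100, non-overlapping groups and a place on no usual list. Open circles are the 6 controls and filled symbols deleted libraries 1 to 4; for most genes libraries 2 and 3 lie farthest from the controls.

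In absolute counts, 5 of the 6 largest gains outside the usual lists were in genes of the cell skeleton, after the mitochondrial transcript mt-Co1, which gained most. Actb and Actg1, the cytoplasmic actins, had 49129, 50993 and 54599.9 and 14328, 16062 and 16638 normalized counts in the controls and 64414, 100352, 86929.5 and 65778 and 22453, 35536, 28804 and 21397 in the deleted libraries (0.60 and 0.73, adjusted p = 0.00168 and 0.00081). Flna, which cross-links actin filaments, rose from 4883, 5295 and 6773 to 13394, 29351, 23161 and 14775 (log2 fold change 1.83, SE 0.19, adjusted p = 4.96e-05). Myh9, the heavy chain of nonmuscle myosin, and Tmsb4x, which binds actin monomers, rose by 0.89 (SE 0.11) and 1.92 (SE 0.22) (adjusted p = 0.000115 and 8.79e-05). No deleted library overlapped the controls in any of the 5, and all were still called without libraries 2 and 3 (0.34, 0.46, 1.38, 0.64 and 1.45). The value of mt-Co1 went from 103365, 135902 and 149165 to 155027, 162473, 171066 and 186427 (log2 fold change 0.35, SE 0.10, adjusted p = 0.0201), but this call was lost without library 3 or without library 4 (adjusted p = 0.0547 and 0.0544). It was also lost without libraries 2 and 3 together (adjusted p = 0.105) and after quantile normalization (0.10, adjusted p = 0.421). On the side of losses stood transcripts of the ribosome and of DNA end joining. Rps14 fell from 34931, 37763 and 41029 to 31028, 24788, 26396 and 27931 (log2 fold change -0.46, SE 0.066, adjusted p = 0.000362). Xrcc6, the Ku70 subunit that holds broken DNA ends, fell from 21356, 23985 and 24459 to 19266, 13609.6, 14921 and 18741 (log2 fold change -0.50, SE 0.092, adjusted p = 0.00174), with no overlap. Rpl13a, Rplp0, Rps3 and Rps2 changed by -0.38 (SE 0.059), -0.29 (SE 0.06), -0.29 (SE 0.049) and -0.22 (SE 0.049) (adjusted p = 0.00057, 0.00348, 0.00102 and 0.00559), though Rplp0, Rps3 and Rps2 were positive relative to Trbc1 and Trbc2 (0.083, 0.085 and 0.16). On that scale Rps14 and Rpl13a differed by -0.086 and -0.0070 and were not called either (adjusted p = 0.267 and 0.932). Ribosomal protein genes have many near-identical processed copies, so how reads were divided among them is uncertain. Without libraries 2 and 3, Rplp0 and Rps2 were not called (adjusted p = 0.0648 and 0.0545).

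Among noncoding transcripts, the microRNA hosts Mir181a-1hg and Mir17hg fell, and the nuclear RNA Malat1 rose. MicroRNAs are short RNAs that pair through their seed, bases 2 to 8, with target messengers; several are cut from longer host transcripts, and it is these hosts, not the mature microRNAs, that polyadenylated libraries measure. The mature sequences hosted by the 2 falling transcripts are shown because each host carries several, and the seed decides which share targets. They are from RefSeq on build GRCm38.p6, 5′ to 3′, seed in capitals. Mir181a-1hg, by its name, hosts the pair at chr1:137966455-137966718 (plus strand, from the start of the first hairpin to the end of the last), which share 1 seed:
miR-181a-5p: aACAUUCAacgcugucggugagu
miR-181b-5p: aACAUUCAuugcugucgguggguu
Mir17hg hosts 6 hairpins at chr14:115043671-115044506 (plus strand), each of which overlaps an exon of that lincRNA gene in the annotation of the same build. Their mature arms have 4 different seeds, one shared by miR-17-5p and miR-20a-5p and one by miR-19a-3p and miR-19b-3p:
miR-17-5p: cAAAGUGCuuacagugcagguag
miR-20a-5p: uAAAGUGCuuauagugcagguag
miR-18a-5p: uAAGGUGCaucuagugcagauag
miR-19a-3p: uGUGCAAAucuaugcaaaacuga
miR-19b-3p: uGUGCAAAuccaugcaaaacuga
miR-92a-3p: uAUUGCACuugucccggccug

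Mir181a-1hg had 162, 188 and 214 normalized counts in the controls (lowest, median, highest) and 78.3, 123, 94.2 and 111 in deleted libraries 1 to 4 (log2 fold change -0.89, SE 0.14, adjusted p = 0.000607). miR-181a is known for tuning T-cell receptor sensitivity in thymocytes. Unlike most falls, the lowest values were in libraries 1 and 3, and without libraries 2 and 3 the change was -0.999 (adjusted p = 0.00214). Relative to Trbc1 and Trbc2 it was -0.52 (adjusted p = 0.0358). Mir17hg, the host of a cluster known to drive lymphocyte growth and named here after its values were seen, had 1083, 1212 and 1462 against 863, 825, 707 and 903 (log2 fold change -0.57, SE 0.091, adjusted p = 0.000765). Its groups did not overlap either, and its value was -0.46 without libraries 2 and 3 (adjusted p = 0.0129) and -0.19 relative to Trbc1 and Trbc2, where it was not called (adjusted p = 0.144). Malat1, a long RNA of nuclear speckles, rose from 3318, 3674 and 4249.9 to 4276, 6049.7, 6302 and 7658 (log2 fold change 0.68, SE 0.13, adjusted p = 0.00212), with library 4 the highest and library 1 just above the highest control. In a list of 18 tested long noncoding and microRNA host genes, which does not hold Mir181a-1hg, 2 were called higher and 5 lower. That is 38.9% against 31.4% of all genes, with a median of -0.059 against -0.023. Without libraries 2 and 3, 1 was higher and 5 lower. The largest fall in the list was that of Kcnq1ot1 (-0.69), an antisense RNA described below.

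Most changes shrank when deleted libraries 2 and 3 were left out, but 192 genes, 51 higher and 141 lower, had a fold change at least as large in libraries 1 and 4 alone. The usual lists hold no list of cell cycle genes and not every gene of lipid metabolism, so genes of both kinds are in this group. It was defined after the values were seen, among 1034 rises and 554 falls outside the usual lists that were called both ways with a mean of at least 50 and no overlap, so its values are a description. Mki67, the proliferation antigen Ki-67, had 12533, 14848 and 16506 normalized counts in the controls and 23184, 20492, 21306 and 23747 in the deleted libraries (log2 fold change 0.59, SE 0.085, adjusted p = 0.000374), with libraries 1 and 4 the highest and 0.68 without the other two. Cenpf, a kinetochore protein, had 1911, 2459.7 and 2887 against 3576, 2927, 3130.0 and 4017, and Iqgap3, a scaffold of the division furrow, 669, 898 and 999 against 1491, 1458, 1382 and 1377. Both rose without overlap (log2 fold changes 0.51 (SE 0.13) and 0.73 (SE 0.10), adjusted p = 0.00967 and 0.000344). Kctd11, an adaptor of a ubiquitin ligase that restrains Hedgehog signaling, gave almost the same value in each deleted library (155, 146, 154 and 155) against 66.4, 77.7 and 97.9 in the controls (log2 fold change 0.92, SE 0.13, adjusted p = 0.000405). Further rises in the same group included that of Prr11 and those of Ska1 and Spag5, which act at the spindle or kinetochore. Cenpe, a kinetochore motor, and Espl1, the protease separase, rose too. Others were Ccnf, a cyclin of the SCF ligase, Arhgap11a, a GTPase activator, the transcription factor Foxm1, and Ero1b, which oxidizes protein disulfide isomerase in the endoplasmic reticulum. Their log2 fold changes, in that order, were 0.65, 0.46, 0.42, 0.44, 0.46, 0.50, 0.43, 0.42 and 0.44, and without libraries 2 and 3 0.68, 0.61, 0.49, 0.56, 0.51, 0.51, 0.45, 0.49 and 0.48. All were called in both fits. Some rises of this group larger than most of these are not named in the text.

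Falls of this kind included Sall3, a zinc finger factor, with 219, 270.1 and 333 in the controls and 108, 153, 159 and 157 in the deleted libraries (log2 fold change -0.89, SE 0.15, adjusted p = 0.000959; -1.02 without libraries 2 and 3). Htr4, a serotonin receptor, had 48.9, 63.3 and 76.0 against 26.7, 42.7, 43.0 and 23.2 (log2 fold change -0.91, SE 0.23, adjusted p = 0.0103; -1.29). Angpt1, the ligand of the Tie2 receptor, had 236, 279 and 317 against 158, 153, 221 and 159 (log2 fold change -0.68, SE 0.13, adjusted p = 0.00227; -0.78). In Htr4, libraries 1 and 4 were clearly below 2 and 3, and in Sall3 library 1 was lowest. Acot5, Pex11g and Amacr, which act in peroxisomal lipid metabolism or peroxisome number, changed by -0.89 (SE 0.16), -0.81 (SE 0.19) and -0.72 (SE 0.17) (adjusted p = 0.00171, 0.00743 and 0.0082). Basp1, a membrane protein that also acts as a transcriptional corepressor, Kcnq1ot1, an imprinted antisense RNA, Nkd1, an inhibitor of WNT signaling, and Slc25a35, a mitochondrial carrier, changed by -0.70 (SE 0.11), -0.69 (SE 0.16), -0.59 (SE 0.11) and -0.58 (SE 0.12) (adjusted p = 0.000868, 0.00623, 0.00234 and 0.00306). Relative to Trbc1 and Trbc2, Sall3 was still called lower (-0.51, adjusted p = 0.0494). On that scale Htr4, Angpt1, Acot5, Pex11g, Amacr, Basp1, Kcnq1ot1, Nkd1 and Slc25a35 were not (-0.54, -0.30, -0.51, -0.43, -0.34, -0.33, -0.31, -0.21 and -0.20). Whether strand was used in counting is not given in the sources used here, so reads of Kcnq1ot1 and of the gene it overlaps may not be fully separated. The 192 genes were also measured in the survival arm, whose 5 control and 5 Acly-deleted libraries share none with the acute arm. Treatment in that arm was timed from the transplant and not from overt leukemia. The hours from treatment to collection are not given for it. The survival arm is therefore not a repeat of the acute contrast. In it 2 of 16136 tested genes were called (0.0124%). There limma called 0 of the 192, and 15 had an unadjusted p under 0.05. The sign was that of the acute arm in 72, 13 of the 51 rises and 59 of the 141 falls. The matching shares of all genes, for sign and for unadjusted p, are not given here. These counts therefore cannot show whether the 192 differ from other genes.

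**Figure D3:**
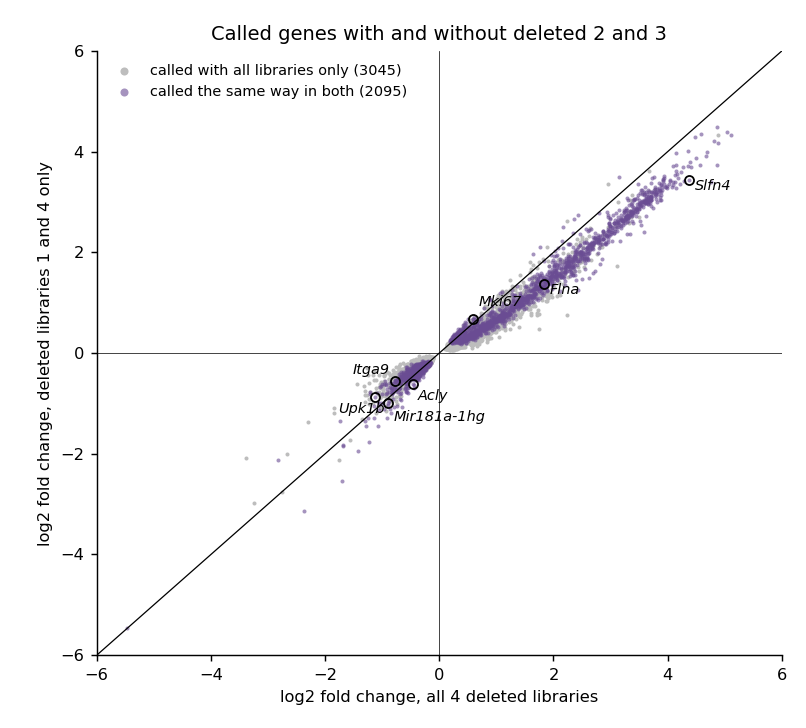
Log2 fold change of each called gene with all 4 deleted libraries (horizontal) against the value with libraries 1 and 4 only (vertical); the diagonal marks equal values. Rises mostly lie below the diagonal, Mki67 and Mir181a-1hg lie beyond it away from 0, and 2095 genes (purple) were called in the same direction both ways.

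**Figure D4:**
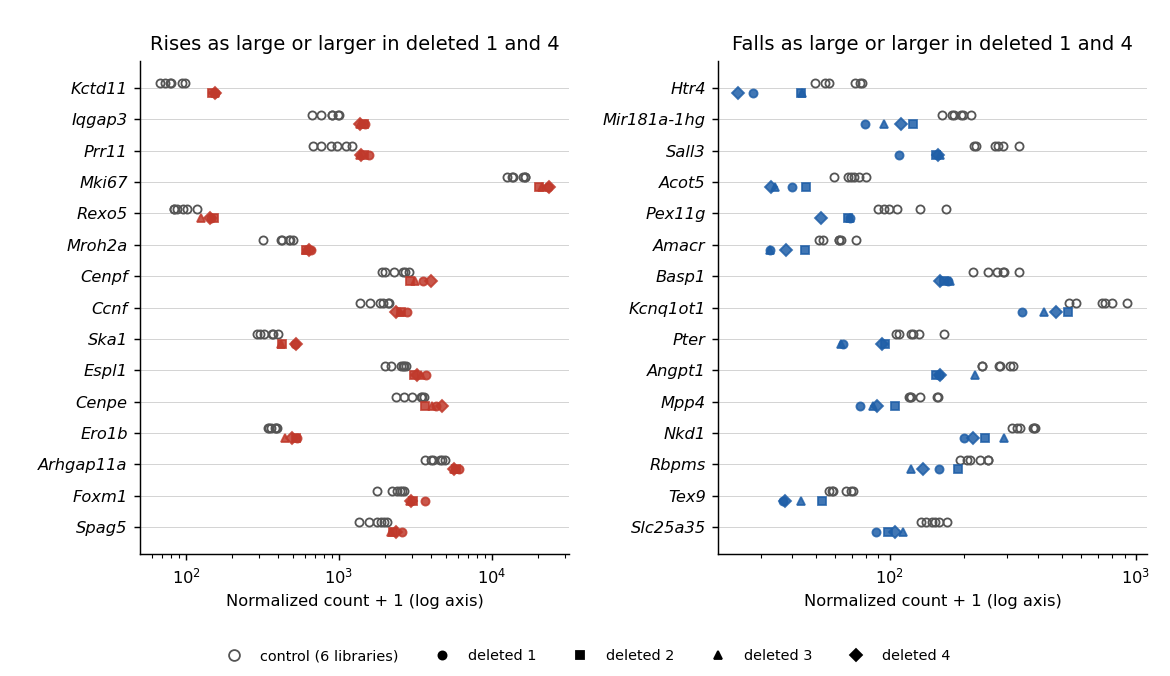
Normalized count + 1 (log axis) in every library for the 15 largest rises (left) and 15 largest falls (right) whose fold change was at least as large without deleted libraries 2 and 3. Open circles are the 6 controls and filled symbols the deleted libraries; the groups do not overlap, by the way these genes were chosen.

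A further 40 gene lists outside the usual pathways were then examined, each by its counts and median beside the 31.4% of all genes called and the all-gene median of -0.023. In 33 of the 40 a larger share was called than in all genes, so an excess of calls was common and marks no list in particular. With the marker score as a covariate no member of any list was called.

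Genes of innate sensing rose almost as a body. Of 36 tested pattern recognition and inflammasome genes, 31 rose and 0 fell, with a median of 1.45. Clec4e, the Mincle receptor for microbial glycolipids, had 3.40 to 12.8 normalized counts in the controls and 113, 180.4, 104 and 103 in the deleted libraries (log2 fold change 4.14, SE 0.38, adjusted p = 3.84e-05). Clec7a, the beta-glucan receptor Dectin-1, and Casp4, the caspase that senses lipopolysaccharide, had 5.36 to 43.3 and 6.50 to 23.4 against 124 to 289 and 79.7 to 255 (3.27 and 3.33, adjusted p = 0.000327 and 8.40e-05). Neither overlapped between the groups, and without libraries 2 and 3 the list had 20 rises and a median of 1.03. In the complement and clotting list 12 of 21 rose and 0 fell (median 1.65, and 11 rises with median 1.06 without libraries 2 and 3). It was led by F10 (coagulation factor X), C5ar1 (the receptor for C5a) and Plaur (the urokinase receptor), which rose by 3.94, 3.82 and 3.65 (adjusted p = 3.84e-05, 3.84e-05 and 5.13e-05). Neutrophil and monocyte markers rose as well, as given above, and a link between them and these lists was not tested.

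Enzymes and receptors of lipid mediators also rose for the most part. Eicosanoid enzymes and receptors had 12 rises and 1 fall among 20 tested (median 1.18). Alox5ap, the partner that hands arachidonate to 5-lipoxygenase, had 161, 208 and 512 in the controls and 1642, 5460.2, 3535 and 2510.1 in the deleted libraries (log2 fold change 3.67, SE 0.34, adjusted p = 3.84e-05), and the prostacyclin receptor Ptgir rose by 3.72 (SE 0.37) (adjusted p = 4.47e-05). Of 30 receptors and enzymes of sphingosine-1-phosphate, purine and lipid-mediator signaling, 17 rose and 2 fell (median 0.97). Gpr84, a receptor for medium-chain fatty acids, and Entpd1, the ectoenzyme CD39 that degrades extracellular ATP, rose by 3.13 (SE 0.30) and 2.36 (SE 0.27) (adjusted p = 3.84e-05 and 9.21e-05). Adora2a, the adenosine receptor downstream of that enzyme, changed by -0.31 (SE 0.077) (adjusted p = 0.00923), but its groups overlapped, it was not called without libraries 2 and 3 (adjusted p = 0.13), and relative to Trbc1 and Trbc2 its value was 0.063. Without libraries 2 and 3, 9 eicosanoid genes and 9 of the receptor list rose and 0 fell.

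Receptors of cytokines divided by gene. In the JAK, STAT and SOCS list 15 of 32 rose and 4 fell (median 0.18). Il7r, the interleukin-7 receptor on which T-cell precursors depend, had 1511, 1663 and 2010.0 normalized counts in the controls and 1237, 959.8, 921 and 1239 in the deleted libraries (log2 fold change -0.67, SE 0.11, adjusted p = 0.000901). All deleted libraries were below all controls, and Il7r stayed called lower without libraries 2 and 3 (-0.47, adjusted p = 0.0162). It was also called lower relative to Trbc1 and Trbc2 (-0.30, adjusted p = 0.0174). Il6ra, Il4ra and Il2rb, receptor chains for interleukins 6, 4 and 2, rose by 3.29 (SE 0.29), 2.54 (SE 0.27) and 2.13 (SE 0.23) (adjusted p = 3.84e-05, 5.91e-05 and 6.22e-05). For NF-kappaB and TNF receptor genes 13 of 29 rose and 0 fell (median 0.15), among them Bcl3, a nuclear IkappaB protein, Tnfrsf1b, a TNF receptor, and Rel (2.59, 1.38 and 1.38, adjusted p = 0.000112, 0.000181 and 0.000186). Without libraries 2 and 3 the JAK list had 7 rises and 2 falls and the NF-kappaB list 6 rises.

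Within the growth signaling lists the direction differed by member. RAS, MAPK and DUSP genes had 12 rises and 3 falls of 33 (median 0.064). Rasgrp4, a RAS activator of mast and myeloid cells, and Mapk3, the ERK1 kinase, rose by 2.92 (SE 0.36) and 1.09 (SE 0.14) (adjusted p = 0.00015 and 0.000161). Spry1, an inhibitor of the pathway, changed by -0.55 (SE 0.14) (adjusted p = 0.0108). It was not called without libraries 2 and 3 (adjusted p = 0.118) or relative to Trbc1 and Trbc2 (-0.18, adjusted p = 0.361). The mTORC1, AMPK and nutrient sensing list had 6 rises and 6 falls of 31. Deptor, an mTOR-binding inhibitor, had 1999.8, 2114 and 2262 against 1604, 1597, 1366 and 1679 (log2 fold change -0.44, SE 0.062, adjusted p = 0.000344). Rragd, a RAG GTPase that brings mTORC1 to lysosomes, changed by -0.47 (SE 0.10) (adjusted p = 0.00434). It was not called without libraries 2 and 3 (adjusted p = 0.0537) or relative to Trbc1 and Trbc2 (-0.093, adjusted p = 0.415). Deptor did not overlap and kept its call without those libraries (-0.36), though relative to Trbc1 and Trbc2 it differed by only -0.063 (adjusted p = 0.608). Of 27 WNT and beta-catenin genes 8 fell and 3 rose (median -0.065; relative to Trbc1 and Trbc2, 0.31 against 0.35 for all genes). The falls included Nkd1 and the ligand Wnt5b, which went from 1089, 1135 and 1224 to 965, 639.9, 781 and 753 (log2 fold change -0.56, SE 0.093, adjusted p = 0.000902), but Wnt5b was not called relative to Trbc1 and Trbc2 (-0.19, adjusted p = 0.104). TGF-beta and BMP genes had 12 rises and 2 falls of 27, led by Acvrl1, the ALK1 receptor, and Tgfbi, a secreted matrix protein (3.86 (SE 0.38) and 3.20 (SE 0.31), adjusted p = 3.84e-05 and 3.84e-05).

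Most genes of adhesion and the cytoskeleton rose, while an integrin chain was among the falls. Of 30 actin cytoskeleton genes 25 rose and 1 fell (median 0.50), and 20 rises remained without libraries 2 and 3. Myo1f, a leukocyte myosin, Capg, which caps filaments, and the intermediate filament protein Vim rose by 3.30 (SE 0.32), 2.54 (SE 0.29) and 2.40 (SE 0.25) (adjusted p = 3.86e-05, 8.57e-05 and 4.71e-05). The fall was that of Ezr, ezrin, which ties actin to the membrane (log2 fold change -0.15, SE 0.04, adjusted p = 0.013), not called without libraries 2 and 3 (adjusted p = 0.0806) and of opposite sign relative to Trbc1 and Trbc2 (0.22). Among 29 integrin and adhesion genes 20 rose and 2 fell (median 0.80). Itga9, integrin alpha 9, fell: it had 7214, 7776 and 8201 normalized counts in the controls and 5522, 3601, 4263 and 5001 in the deleted libraries (log2 fold change -0.77, SE 0.096, adjusted p = 0.00015). Library 2 was lowest and library 1 highest of the deleted libraries, all below the controls. Itga9 was called lower without libraries 2 and 3 (-0.56, adjusted p = 0.00021) and relative to Trbc1 and Trbc2 (-0.39, adjusted p = 0.0016). Cd44, the hyaluronan receptor, and Cd34, a sialomucin of progenitors, rose by 2.28 (SE 0.24) and 3.58 (SE 0.30) (adjusted p = 5.51e-05 and 3.84e-05).

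The matrix and membrane lists held rises and falls. Matrix proteins and proteases had 11 rises and 2 falls of 28, with Adam8 rising by 3.26 (SE 0.28) (adjusted p = 3.84e-05). Timp2, an inhibitor of matrix metalloproteinases, fell from 2412, 2668 and 2846 to 2125, 1829, 1897 and 1785 (log2 fold change -0.46, SE 0.064, adjusted p = 0.00031; -0.43 without libraries 2 and 3, and -0.085 relative to Trbc1 and Trbc2, adjusted p = 0.497). Annexins and tetraspanins had 9 rises and 4 falls of 22. Anxa3 and Cd63 rose by 3.55 (SE 0.36) and 2.60 (SE 0.33) (adjusted p = 4.71e-05 and 0.00015). Tspan3 changed by -0.39 (SE 0.062) (adjusted p = 0.000682), with -0.017 relative to Trbc1 and Trbc2. In the costimulation and checkpoint list, 14 of 29 rose and Cd200 alone fell. Vsir, the VISTA checkpoint, rose from 616, 651 and 871 to 2119.7, 6536, 4514 and 2566 (log2 fold change 2.35, SE 0.26, adjusted p = 6.62e-05), with no overlap and library 2 highest. Sirpa, the receptor for the CD47 signal, and Icosl, the ICOS ligand, rose by 1.98 (SE 0.23) and 2.81 (SE 0.37) (adjusted p = 8.86e-05 and 0.000202).

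Relative to the average transcript, though not to Trbc1 and Trbc2, the called genes that make and degrade proteins mostly fell, by small amounts. Of 30 translation initiation and elongation factors 15 fell and 1 rose, with a median of -0.16. Eif3e, a subunit of the scaffold that loads the small ribosomal subunit, had 7859.5, 9075 and 9888 against 7203, 6095, 5992 and 7719 (log2 fold change -0.43, SE 0.081, adjusted p = 0.00218). Eif4a1, the RNA helicase of initiation, had 25127, 27165 and 28580.4 against 22543, 20882, 22226 and 21641 (log2 fold change -0.30, SE 0.049, adjusted p = 0.000918). Neither overlapped, and the deleted libraries lay close together for Eif4a1, whereas Eif3e was lowest in libraries 2 and 3 and changed by -0.27 without them. Proteasome genes had 13 falls and 0 rises of 30 (median -0.14), with Psma6 and Psmd12 changing by -0.29 (SE 0.066) and -0.21 (SE 0.043) (adjusted p = 0.00657 and 0.00317). Cytosolic aminoacyl-tRNA synthetases had 5 falls and 0 rises of 20. Dars, for aspartate, had 5327, 5511 and 5960.4 in the controls and 4599, 4599.8, 4479.8 and 4549.6 in the deleted libraries, and Rars, for arginine, changed by -0.26 (SE 0.042) (adjusted p = 0.000465 and 0.000726). Chaperones had 7 falls and 0 rises of 23, including Cct3 of the chaperonin ring (-0.27 (SE 0.042), adjusted p = 0.000659). Spliceosome and SR protein genes had 6 falls and 1 rise of 30, including Hnrnpc and Srsf6 (-0.28 and -0.33, adjusted p = 0.00141 and 0.00266). The synthetases, chaperones and spliceosome had 25, 30.4 and 23.3% of members called, less than the 31.4% of all genes. Called lower were 25, 30.4 and 20% of them, against 14.7% of all genes. The medians of translation factors, the proteasome and chaperones hardly moved without libraries 2 and 3 (-0.17, -0.14 and -0.13), while fewer members passed the test (6, 2 and 3 falls). The medians of the synthetases and the spliceosome went from -0.091 and -0.13 to -0.12 and -0.089, with 3 and 2 falls. Psma6 and Srsf6 were then not called (adjusted p = 0.103 and 0.0576). Their direction depends on the scale: relative to Trbc1 and Trbc2 the medians of translation factors, proteasome, synthetases, chaperones and spliceosome were positive (0.22, 0.24, 0.28, 0.26 and 0.25), below the 0.35 of all genes. Eif3e differed by -0.050 on that scale, the other falls named from these lists had positive values, and none was called. Nuclear pore and transport genes, with 4 rises and 2 falls of 25 (24% called), were below the all-gene share; Tpr, a protein of the nuclear basket, rose by 0.22 (SE 0.043) (adjusted p = 0.00247).

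**Figure D5:**
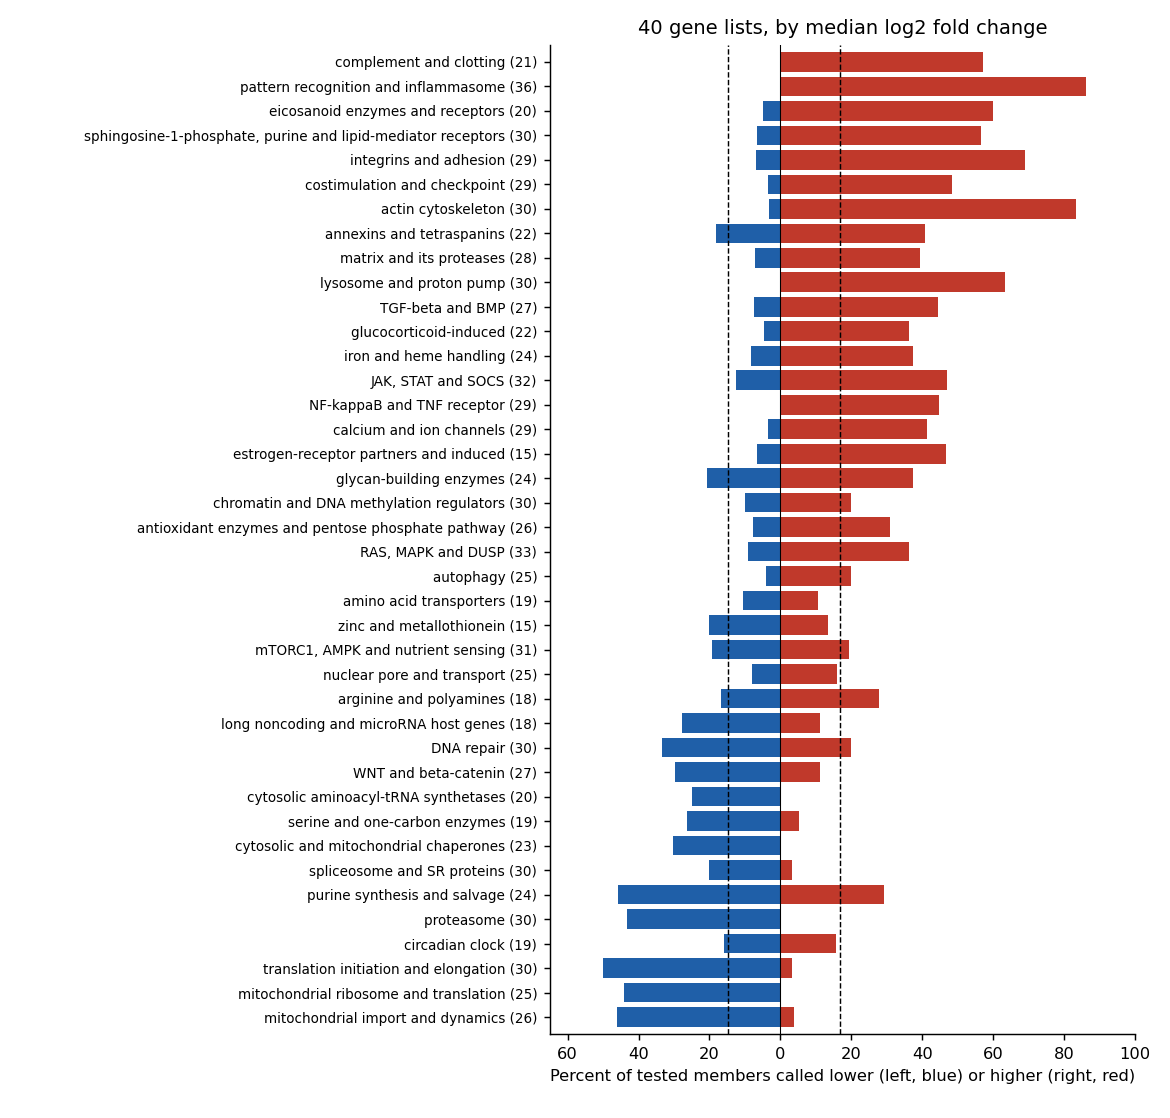
For each of 40 lists (tested members in parentheses), the percent of members called higher (red, right) or lower (blue, left), ordered by median log2 fold change. Dashed lines mark the 16.7% of all genes called higher and the 14.7% called lower; pattern recognition and actin genes reach furthest right, translation factors and mitochondrial import furthest left, though their medians are positive when scaled to Trbc1 and Trbc2.

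Lists of organelle genes differed from one another. The 2 mitochondrial lists were lower relative to the average transcript, though not to Trbc1 and Trbc2, and the lysosome list was higher. Mitochondrial ribosome and translation genes had 11 falls and 0 rises of 25 (median -0.16), and mitochondrial import and dynamics genes 12 falls and 1 rise of 26 (median -0.18). Phb, a prohibitin of the inner membrane, had 2743, 2945 and 3096 normalized counts in the controls and 2379, 2163, 2477 and 2011 in the deleted libraries (log2 fold change -0.38, SE 0.061, adjusted p = 0.000735). Timm9, a carrier of proteins between the membranes, and Mrps5, of the small mitochondrial ribosomal subunit, fell from 531, 632 and 685 and 993, 1026 and 1086 to 476, 431, 467 and 474 and 849.8, 802, 775 and 864 (-0.43 and -0.33, adjusted p = 0.0014 and 0.000598). Every deleted library was below every control in these genes. Without libraries 2 and 3 Phb, Timm9 and Mrps5 changed by -0.42, -0.38 and -0.27 and were still called. Medians of the 2 lists were then -0.13 and -0.21. They were positive relative to Trbc1 and Trbc2, at 0.21 and 0.19 against 0.35 for all genes, and Phb, Timm9 and Mrps5 were not called (-0.0045, -0.050 and 0.041). The lysosome and proton pump list went up, with 19 rises and 0 falls of 30 (median 0.40; 11 rises without libraries 2 and 3, median 0.14). Hexa, a lysosomal hexosaminidase, and the protease Ctsh rose by 2.26 (SE 0.24) and 2.30 (SE 0.26) (adjusted p = 5.51e-05 and 8.37e-05). Tfeb, the transcription factor of lysosome genes, rose from 58.1, 67.7 and 80.7 to 185, 349, 279.7 and 187 (log2 fold change 1.82, SE 0.20, adjusted p = 6.22e-05). Autophagy genes were called less than all genes (6 of 25, 24%), with Wipi1 up by 2.22 (SE 0.27) and Calcoco1 changing by -0.48 (SE 0.079) (adjusted p = 0.000124 and 0.000953). Calcoco1 was not called relative to Trbc1 and Trbc2 (-0.10, adjusted p = 0.347).

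Purine metabolism split in opposite directions. Of 24 purine synthesis and salvage genes 11 fell and 7 rose (75% called, median -0.14; 5 falls and 4 rises without libraries 2 and 3; relative to Trbc1 and Trbc2, 12 rises and 0 falls). The lowest log2 fold change in the list was -0.41, and the members named here are all rises. Xdh, the oxidase that turns xanthine into uric acid, had 53.0, 94.1 and 164 normalized counts in the controls and 745, 2386, 1858 and 1009.6 in the deleted libraries (log2 fold change 3.87, SE 0.34, adjusted p = 3.84e-05). Samhd1, which breaks down deoxynucleotides, had 237, 284 and 455 against 893, 3177, 2141 and 1272 (log2 fold change 2.47, SE 0.30, adjusted p = 0.000114). In both, library 2 was highest and library 1 lowest of the deleted libraries. Ampd3, an AMP deaminase, rose by 1.02 (SE 0.20) (adjusted p = 0.00269), and by 0.53 without libraries 2 and 3. In the serine and one-carbon list 5 of 19 fell and 1 rose (relative to Trbc1 and Trbc2, 9 rose and 0 fell). Psph, the last step of serine synthesis, and Shmt1, which links serine to folate, changed by -0.32 (SE 0.074) and -0.30 (SE 0.073) (adjusted p = 0.00692 and 0.00935). Neither was called without libraries 2 and 3 (adjusted p = 0.0958 and 0.0588). Both were positive relative to Trbc1 and Trbc2 (0.059 and 0.079). Amino acid transporters were called less than all genes, 2 higher and 2 lower of 19 (21.1%).

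Among the remaining metabolic lists, the pentose phosphate enzymes G6pdx and Pgd, which supply NADPH, and the peroxiredoxin Prdx5 rose. G6pdx had 1423, 1555 and 1805 in the controls and 3172, 8442, 6163 and 3926 in the deleted libraries (log2 fold change 1.69, SE 0.21, adjusted p = 0.000162). Pgd and Prdx5 changed by 0.96 (SE 0.16) and 1.42 (SE 0.21) (adjusted p = 0.000796 and 0.000436), or 0.60 and 0.94 without libraries 2 and 3. Their list had 8 rises and 2 falls of 26. Iron and heme genes had 9 rises and 2 falls of 24. Hp, haptoglobin, had 216, 417 and 967 against 3295, 11218, 7300.4 and 4684 (log2 fold change 3.84, SE 0.39, adjusted p = 4.59e-05). Slc11a1, the metal transporter of phagosomes, rose by 1.42 (SE 0.23) (adjusted p = 0.000918; 0.94 without libraries 2 and 3). Aco1, which senses iron, changed by -0.25 (SE 0.055) (adjusted p = 0.00514), with 0.13 relative to Trbc1 and Trbc2. In the arginine and polyamine list (5 rises and 3 falls of 18), Ass1, which makes argininosuccinate, rose by 1.88 (SE 0.24) (adjusted p = 0.000162). Srm, spermidine synthase, changed by -0.36 (SE 0.10) (adjusted p = 0.0185), with overlapping groups and 0.016 relative to Trbc1 and Trbc2. In the zinc and metallothionein list (2 rises and 3 falls of 15) the importer Slc39a10 changed by -0.39 (SE 0.074) (adjusted p = 0.00223; -0.0093 relative to Trbc1 and Trbc2). In the list of glycan-building enzymes (9 rises and 5 falls of 24) Gcnt2 and Galnt3, which branch and start sugar chains, rose by 3.26 (SE 0.38) and 1.79 (SE 0.23) (adjusted p = 9.62e-05 and 0.000194).

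DNA repair genes changed in both directions, with 10 falls and 6 rises of 30 (53.3% called, median -0.064; relative to Trbc1 and Trbc2, 0 falls and 19 rises). Xrcc5, the Ku80 partner of Xrcc6, had 1609, 1787 and 1915 normalized counts in the controls and 1441, 1227, 1302 and 1356 in the deleted libraries (log2 fold change -0.40, SE 0.061, adjusted p = 0.000516). Lig4, the ligase of end joining, had 3085, 3178 and 3407 against 2760.0, 2160.0, 2239 and 2577 (log2 fold change -0.40, SE 0.067, adjusted p = 0.000942). The groups did not overlap, and libraries 2 and 3 were lowest. Without them Xrcc6, Xrcc5 and Lig4 changed by -0.30, -0.33 and -0.26 and were called. Relative to Trbc1 and Trbc2 they differed by -0.13, -0.028 and -0.026 and were not. Fancd2, of the Fanconi pathway, rose from 759, 904 and 1006 to 1272, 1009, 1096 and 1159.6 (log2 fold change 0.36, SE 0.085, adjusted p = 0.00718), and by 0.46 without libraries 2 and 3. Chromatin and DNA methylation regulators were near the all-gene share (6 rises and 3 falls of 30). Within them Tet2 and Tet1, which oxidize methylcytosine, moved apart. Tet2 had 18.2, 39.3 and 74.9 against 102, 387, 266 and 199 (log2 fold change 2.55, SE 0.43, adjusted p = 0.000967). Tet1 had 228, 259 and 325 against 221, 131, 190.4 and 215 (log2 fold change -0.52, SE 0.15, adjusted p = 0.0202). Tet1 was not called without libraries 2 and 3 (adjusted p = 0.179) or relative to Trbc1 and Trbc2 (-0.14, adjusted p = 0.397), and the difference between the 2 genes was not tested. Kdm5b, a demethylase of histone H3, rose by 1.66 (SE 0.25) (adjusted p = 0.000551).

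Hormone-linked lists are given because the deleted group alone received tamoxifen, a ligand of the estrogen receptor. Of 15 estrogen-receptor partners and induced genes, 7 rose and 1 fell (53.3% called, median 0.11), but without libraries 2 and 3 only 1 rose and 1 fell. The fall was that of Greb1, an estrogen-induced cofactor of the receptor, with 476, 518 and 592 normalized counts in the controls and 369, 229, 295 and 351 in the deleted libraries (log2 fold change -0.78, SE 0.12, adjusted p = 0.00069). It did not overlap, and it was called lower without libraries 2 and 3 (-0.55, adjusted p = 0.00332) and relative to Trbc1 and Trbc2 (-0.41, adjusted p = 0.0143). Igfbp4, a binding protein of insulin-like growth factors, rose by 2.85 (SE 0.37) (adjusted p = 0.0002). Glucocorticoid-induced genes had 8 rises and 1 fall of 22, the rises including Rgs2, a brake on G protein signaling (1.26 (SE 0.19), adjusted p = 0.000494), and the fall being Il7r. Circadian clock genes were called as often as all genes (3 rises and 3 falls of 19, 31.6%). Nfil3, a repressor of clock output, rose by 0.74 (SE 0.17) (adjusted p = 0.0064; adjusted p = 0.11 without libraries 2 and 3). Tef, an activator of the same sites, fell from 234, 254 and 337 to 169, 229, 204 and 202 (log2 fold change -0.41, SE 0.12, adjusted p = 0.0198), a call lost without deleted library 1 (adjusted p = 0.0514) and relative to Trbc1 and Trbc2 (-0.036, adjusted p = 0.879). Calcium and ion channel genes had 12 rises and 1 fall of 29, led by Hvcn1, a proton channel of phagocytes, Kcnk6, a potassium channel, and Trpm2, a cation channel opened by ADP-ribose (2.27 (SE 0.24), 2.06 (SE 0.24) and 2.06 (SE 0.25), adjusted p = 5.36e-05, 8.87e-05 and 0.000141).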

How the data were processed

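Polyadenylated RNA of leukemic spleens was sequenced; the 10 acute libraries were grouped by their labels and analysed within their own table, which was scaled apart from the survival table. The deposited values are a signal of normalized counts, which the authors obtained with kallisto 0.46.0 on build GRCm39 and DESeq, per the submitters' processing notes. The sources used here give neither the annotation nor any filter nor whether strand was used. The values are not raw reads: 54.8 to 80.7% of low values lay within 0.1 step of a whole multiple of the commonest step, so reads were not recovered and tests for counts were not run.

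From these values log2(normalized count + 1) was computed, so fold changes of low genes are understated. Genes at 10 or more in at least 4 libraries entered a linear model in limma 3.58.1 (R 4.3.3; lmFit, eBayes with a mean-variance trend, two-sided, no block). Benjamini-Hochberg adjustment ran over the 16363 tested genes, and a gene was called, and is said to have risen or fallen, at an adjusted p under 0.05. The fit was tested on simulated data. The members, lists, naming rule and tests were chosen with earlier results of these data known.

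Named genes are Acly, the 12 largest rises and 12 largest falls and the 6 largest gains and losses of counts among called genes with a mean of at least 100, non-overlapping groups and a place on no usual list (no receptor or antibody segments, Gm or Rik models or pseudogenes), and, per list, up to 3 called members with a mean of at least 50 and the largest change plus 1 in the opposite direction. The genes whose change was as large without deleted libraries 2 and 3, Mir17hg and the steep falls at low level were chosen after the values were seen. A rule for genes also called with the marker score as covariate found 0. Not every gene that the rule allows is named, and 1 of the largest falls is not reported here. Alternatives were other filters (none, or 50), pseudocounts of 0.1 and 10, quantile normalization, scaling to Trbc1 and Trbc2, no trend, robust eBayes, the marker score, a replicate block and leaving out libraries. MicroRNA sequences are from RefSeq. Figures were drawn with Python 3.11.15 and matplotlib 3.10.9.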

Additional observations from a re-analysis of the deposited data

Results flagged for a closer look

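For each gene named in the text, the highest and the lowest library of each group were set against the rest of that group, by the gap to the nearest library as a share of the whole range (Dixon's test at 95%). Of 314 such comparisons 24 passed. Chance alone gives about 1 in 20. In 13 of them the library that stood out was control library 2, whose marker score (-0.24) was the highest of the controls. Its normalized counts were 28.9 for Ceacam10 (other controls 6.49 to 11.8), 32.8 for Ifnlr1 (other controls 8.82 to 17.2), 188 for Alox5 (other controls 42.8 to 92.7) and 6773 for Flna (other controls 4883 to 5449). It also had 455 for Samhd1 (other controls 237 to 313), 967 for Hp (other controls 216 to 448), 3797 for Pgd (other controls 2968 to 3204) and 172 for Il6ra (other controls 63.6 to 96.3). Further values were 108 for Acvrl1 (other controls 39.2 to 61.5), 512 for Alox5ap (other controls 161 to 229.6), 282 for Igfbp4 (other controls 61.7 to 116) and 496 for Myo1f (other controls 189 to 297). The last was a value of 282 for Capg (other controls 167 to 207). All of these genes were also called higher without control library 2.

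The other values that stood out were 503 for Upb1 in control library 3 (others of its group 433 to 459), 14328 for Actg1 in control library 1 (others of its group 16036 to 16638), 146 for Kctd11 in deleted library 2 (others of its group 154.4 to 154.5) and 108 for Sall3 in deleted library 1 (others of its group 153 to 159). To these were added 51.4 for Pex11g in deleted library 4 (others of its group 67.0 to 68.2), 221 for Angpt1 in deleted library 3 (others of its group 153 to 159), 6013 for Srsf6 in deleted library 4 (others of its group 4901 to 5085) and 180.4 for Clec4e in deleted library 2 (others of its group 103 to 113). The rest were 37.0 for Icosl in control library 6 (others of its group 13.8 to 21.4), 55.1 for Gm29253 in control library 1 (others of its group 11.6 to 24.8) and 2.97 for Pck1 in deleted library 1 (others of its group 4.93 to 5.08). Kctd11 passed because the other deleted libraries were nearly equal.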

How the results depend on the processing

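Directions of the named genes and of Acly were kept under each filter, pseudocount, normalization and left-out library in which they were fitted (a filter of 50 left out 7 genes of low level). The exceptions came when libraries were scaled to Trbc1 and Trbc2 (18 genes) or the marker score was a covariate (23 genes). Without deleted libraries 2 and 3, 2137 genes were called, 1414 higher and 723 lower. With the marker score, limma called 0, with 0 higher and 0 lower (1180 at an unadjusted p under 0.05), and Acly differed by -0.78 (adjusted p = 0.381). Quantile normalization called 4145 lower. Scaled to Trbc1 and Trbc2, 7414 were called higher and 90 lower, and Acly differed by -0.081 (adjusted p = 0.653). Leaving out 1 library at a time gave 3693 to 5444 called genes, 2135 to 2916 higher and 1535 to 2528 lower (1535 without deleted library 2), and -0.52 to -0.38 for Acly. A replicate block on numbers 1 to 4 (8 libraries) called 3228 genes, 1130 of them lower, with -0.48 for Acly; fewer libraries entered that fit. Same-numbered libraries did not all deviate together (correlations 0.0936, 0.123, -0.0662 and 0.142, and deleted libraries 1 to 4 correlated best with controls 1, 1, 2 and 3). So few correlations cannot decide whether libraries of the same number were paired. Of the named genes other than Acly, 7 lost their call under the replicate block, 18 without deleted libraries 2 and 3, and 46 when scaled to Trbc1 and Trbc2, where 22 of 68 falls were still called lower. The opposite sign appeared, scaled to Trbc1 and Trbc2, for Rplp0 0.084, Rps3 0.085, Rps2 0.16, Psph 0.059, Shmt1 0.079, Srm 0.016, Aco1 0.13, Mrps5 0.041, Srsf6 0.046, Hnrnpc 0.091, Dars 0.084, Rars 0.11, Eif4a1 0.079, Psma6 0.088, Psmd12 0.16, Cct3 0.11, Adora2a 0.063 and Ezr 0.22. With the marker score it appeared for Mapk13 -0.32, Igfbpl1 0.54, Cd200 0.071, Stra8 0.15, Gpr83 0.28, Myzap 0.11, Actb -0.19, Actg1 -0.078, Xrcc6 2.9e-04, Psph 0.012, Samhd1 -0.012, Ampd3 -0.52, Slc11a1 -0.14, G6pdx -0.018, Prdx5 -0.18, Pgd -0.26, Tet2 -0.13, Kdm5b -0.0062, Tet1 0.30, Lig4 0.023, Tnfrsf1b -0.062, Nfil3 -0.28 and Rgs2 -0.19. None of these values passed the test. The cause was not tested. The depth of reads is unknown, which limits statements on genes near a normalized count of 10.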

Other observations

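Among genes at low levels, 7 were called lower with a log2 fold change of -1.5 or below and no overlap between the groups. They were picked after the values were seen, and the rule for named genes leaves them out. The transcript model 4732465J04Rik had 29.5 to 58.0 normalized counts in the 6 controls and was listed at 0 in all 4 deleted libraries. Whether these zeros are an effect of quantification or annotation was not tested. It was present in both groups of the survival arm, at 44.4 to 71.0 in the controls and 37.5 to 55.2 in the Acly-deleted libraries. Ngfr, the low-affinity neurotrophin receptor, had 30.2, 35.4 and 41.8 in the controls (lowest, median, highest) and 15.9, 3.81, 13.9 and 11.5 in deleted libraries 1 to 4 (log2 fold change -1.74, SE 0.33, adjusted p = 0.00206). It was still called lower without libraries 2 and 3 (-1.36, adjusted p = 0.00655) and relative to Trbc1 and Trbc2 (-1.37, adjusted p = 0.0037). H2-Q1, a class I histocompatibility gene whose reads may be shared with near-identical neighbours, had 38.2, 51.2 and 61.5 against 10.99, 11.1, 24.3 and 16.7 (log2 fold change -1.69, SE 0.25, adjusted p = 0.000453). Pck1, the cytosolic enzyme that turns oxaloacetate into phosphoenolpyruvate, had 9.50, 16.8 and 29.8 against 2.97, 5.08, 4.95 and 4.93 (log2 fold change -1.69, SE 0.36, adjusted p = 0.0044). Library 2 was lowest for Ngfr and library 1 for Pck1. The remaining genes were Pwwp4a, Lrguk and Gm29253 (log2 fold changes -3.25, -1.84 and -2.37, adjusted p = 0.0108, 0.00534 and 0.0101). Pwwp4a had 27.5 to 56.7 in the controls and 0, 0, 10.9 and 24.6 in deleted libraries 1 to 4. Gm29253 had 11.6 to 55.1 against 0, 6.37, 4.97 and 4.08. With zeros among the values, the size of these 2 fold changes depends on the pseudocount. Pwwp4a and Lrguk were not called without libraries 2 and 3 (adjusted p = 0.0517 and 0.0589). In the survival arm, where treatment was timed from the transplant and not from overt leukemia, the ranges of the groups overlapped for all 7.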
